A study of Mus musculus with 2 samples.

Results

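Kinesins, cytoplasmic dyneins and dynactin are the protein machines that move cargo along microtubules and build the mitotic spindle. The genes described here were taken by name: protein-coding mouse genes whose symbols begin with Kif and a digit, Kifc, Klc and a digit, Dync or Dynl, with Kifap3 and Dctn1 to Dctn6. This gave 69 genes, beside 17216 genes in the deposited files. Of the 69, 66 were listed in at least 1 library, and 53 averaged at least 1 FPKM (fragments scaled by transcript length and by library depth). The other 16 are given by their ranges, and 3 of them, Kif2b, Kif12 and Kif28, were listed in neither library and taken as 0.

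The RNA came from cells sorted by flow cytometry as long-term haematopoietic stem cells (without lineage markers or CD48, with Sca-1, c-Kit and CD150) from C57BL/6 mice. There was 1 library from mice lacking CCP3, with the genotype Ccp3-/-, and 1 library from wild type littermates. The sources used here give neither age, sex and number of animals nor the deleted stretch of the gene. CCP3 belongs to the cytosolic carboxypeptidases, enzymes that remove glutamates from proteins, among them the tubulin of the tracks on which motors walk. The question posed was which RNAs change in level without it.

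With 1 library per genotype no test was possible, every value describes these libraries, and the intervals cover counting error only. The knockout library listed 16318 genes from about 14.2 M reads, and the wild type library 16532 genes from about 15.4 M reads. Agbl3, which encodes CCP3, was listed at 0.66 FPKM in the knockout library and 1.11 FPKM in the wild type library, a ratio of 0.595 (95% counting interval 0.290 to 1.19). Its RNA did not check the genotype label, so the first is called the knockout-labelled library. Of the gate's positive markers, Kit stood at 56.5 FPKM in the knockout-labelled and 59.7 FPKM in the wild type library, and Ly6a, which encodes Sca-1, at 28.4 FPKM in the knockout-labelled and 49.1 FPKM in the wild type library. Slamf1, which encodes CD150, stood at 3.40 FPKM in the knockout-labelled and 2.14 FPKM in the wild type library. Cd48 RNA, although CD48 protein was gated out, stood at 114 FPKM in the knockout-labelled and 136 FPKM in the wild type library. Among progenitor markers, Cd34 stood at 177 FPKM in the knockout-labelled and 248 FPKM in the wild type library, and Flt3 at 82.5 FPKM in the knockout-labelled and 155 FPKM in the wild type library. All 6 RNAs were present, 5 of them lower in the knockout-labelled library. Of the markers named in the gate, the RNA of Cd48 goes against it. Cd34 and Flt3, which the gate does not name, stood above Slamf1 in both libraries. By 1.5-fold or more, 5 of 10 neutrophil markers were higher in the knockout-labelled library, where 6.12% of all genes were higher. Likewise 8 of 8 B cell, 7 of 8 dendritic cell and 5 of 7 erythroid markers were lower, where 6.14% of all genes were lower. Within these lists some markers went the other way. Camp (ratio 0.731) and Ngp (0.973) of the neutrophil list were lower. Klf1 (1.18) and Epor (1.33) of the erythroid list were higher, with counting intervals that included 1. Summed neutrophil markers came to 11595 FPKM in the knockout-labelled and 8398 FPKM in the wild type library, and B cell markers to 57.3 FPKM in the knockout-labelled and 127 FPKM in the wild type library. Dendritic cell markers came to 318 FPKM in the knockout-labelled and 542 FPKM in the wild type library, and erythroid markers to 297 FPKM in the knockout-labelled and 1289 FPKM in the wild type library. Most of the erythroid sum was globin RNA, with Hba-a1 at 155 FPKM in the knockout-labelled and 764 FPKM in the wild type library. None of these markers was at 0, although cells with lineage markers were gated out. How pure the sort was cannot be told from these values. The part of these markers in the values of the motor genes was not tested, and fewer cells of a type cannot be told apart from less RNA per cell.

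Kinesins hydrolyse ATP in a conserved motor domain, and most of them walk towards the plus end of a microtubule. Cytoplasmic dynein walks towards the minus end as a complex of heavy, intermediate, light intermediate and light chains, and it needs dynactin and a cargo adaptor to travel far. In dividing blood progenitors one set of kinesins builds and resolves the spindle, while others carry vesicles, mitochondria and RNA or serve the primary cilium.

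Nearly all motor genes had similar levels in the 2 libraries. The difference of a gene is its log2(FPKM + 1) in knockout-labelled minus wild type cells. On that scale 51 of the 53 genes (96.2%) lay within 1.5-fold, against 87.7% of all 11985 genes averaging at least 1 FPKM. At least 1.5-fold higher were Kif5b and Kif1b, 2 of 53 genes, where the share over all genes was 6.12%. No motor gene was at least 1.5-fold lower, where the share over all genes was 6.14%. At 2-fold the motor genes counted 0 higher and 0 lower, where 1.21% and 1.55% of all genes passed. Higher genes made up 49.9% of all genes past 1.5-fold. With both libraries scaled to the same FPKM sum that share was 78.8% and the median of all genes was 0.18. At that sum 5 of 54 motor genes (9.26%) were at least 1.5-fold higher, against 12.3% of all genes. The 5 were Dctn1, Kif14, Kif15, Kif1b and Kif5b. With the same upper quartile, higher genes made up 39.1% of all genes past 1.5-fold. Kif17 was then at least 1.5-fold lower, where 7.43% of all genes were lower. The median difference was 0.05 over the motor genes and 0.01 over all genes, and that of the motor genes was −0.05 with centring on genes of similar transcript length. The counting interval of the ratio lay above 1 for 20 motor genes (37.7%), against 31.2% of all genes, and below 1 for 17 (32.1%), against 27% of all genes.

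**Figure D1:**
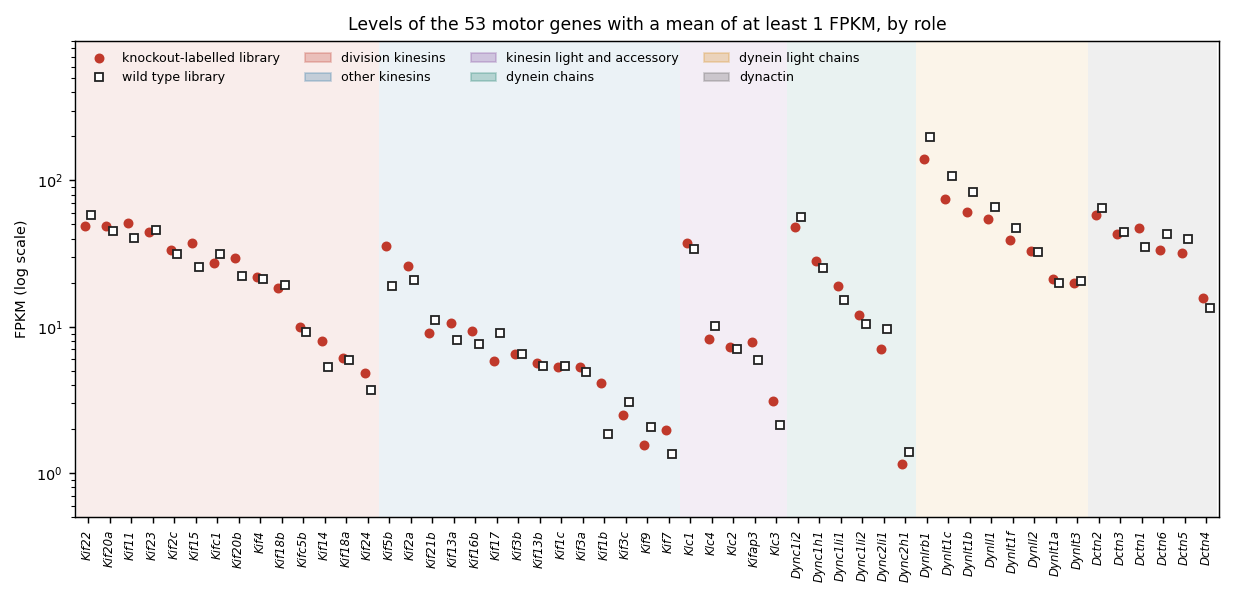
FPKM on a log axis of the 53 motor genes averaging at least 1 FPKM, by role, with filled circles for the knockout-labelled library and open squares for the wild type library. The symbols lie close together for most genes, while the circle stands above the square for Kif5b (35.6 and 18.9 FPKM) and Kif1b (4.14 and 1.84 FPKM).

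Kinesins of cell division were among the most abundant motors. Of 15 such genes 14 averaged at least 1 FPKM, none was 1.5-fold higher or lower, and their median difference was 0.09. Kif11, which pushes the spindle poles apart, was listed at 51.3 FPKM in the knockout-labelled and 40.7 FPKM in the wild type library. Kif22, a motor that binds chromosome arms, was listed at 49.0 FPKM in the knockout-labelled and 58.4 FPKM in the wild type library. Kif20a, a motor of cytokinesis, was listed at 48.8 FPKM in the knockout-labelled and 45.4 FPKM in the wild type library. All 3 lay high among genes by level, Kif11 at percentile 89.8 and Kif22 at percentile 91.3, and the sign of the difference varied among them. Kif23, the motor of the central spindle, was listed at 44.3 FPKM in the knockout-labelled and 45.9 FPKM in the wild type library. Kif2c, a depolymerase that corrects faulty chromosome attachments, was listed at 33.2 FPKM in the knockout-labelled and 31.3 FPKM in the wild type library. Kif4, a chromosome motor that also acts at the central spindle, was listed at 22.0 FPKM in the knockout-labelled and 21.1 FPKM in the wild type library. These 3 had counting intervals that included a ratio of 1.

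Among the other division kinesins, Kif15, Kif20b and Kif14 were higher in the knockout-labelled library by less than 1.5-fold on the log2(FPKM + 1) scale. Kif15, which keeps the spindle bipolar alongside Kif11, was listed at 37.1 FPKM in the knockout-labelled and 25.8 FPKM in the wild type library, a ratio of 1.44 (1.36 to 1.53). Kif20b, which acts in cytokinesis, was listed at 29.6 FPKM in the knockout-labelled and 22.3 FPKM in the wild type library. Kif14, another motor of cytokinesis, was listed at 8.01 FPKM in the knockout-labelled and 5.31 FPKM in the wild type library, a ratio of 1.51 (1.36 to 1.67) and a difference of 0.51. The transcripts of these 3 genes were long, at 4840, 5563 and 8338 bases. Against genes of similar length the difference of Kif15 went from 0.51 to 0.36, that of Kif20b from 0.39 to 0.21 and that of Kif14 from 0.51 to 0.17. Kif18a, which damps chromosome movement, was listed at 6.16 FPKM in the knockout-labelled and 5.93 FPKM in the wild type library. Its relative Kif18b, a regulator of astral microtubules, was listed at 18.3 FPKM in the knockout-labelled and 19.2 FPKM in the wild type library. Kif24, which acts at the mother centriole and restrains cilium formation, had a mean below 5 FPKM.

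Kifc1, a minus-end motor that focuses spindle poles, was listed at 27.1 FPKM in the knockout-labelled and 31.6 FPKM in the wild type library. Its close copy Kifc5b was listed at 10.02 FPKM in the knockout-labelled and 9.21 FPKM in the wild type library. Their annotated coding sequences were 98.1% identical, differing in 38 of 2022 aligned columns, so reads could be split between them and each value is uncertain. Their sum was 37.2 FPKM in the knockout-labelled and 40.8 FPKM in the wild type library, a ratio of 0.911.

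Most division kinesins shared a promoter feature that the choice of genes by name did not use. The group was set by its role in division and the motif by its place in cell cycle genes, so a high share is no independent result. A CHR element, TTTGAA, marks many promoters of genes expressed late in the cell cycle, often with a CCAAT box nearby. Both motifs were searched on both strands (TTCAAA and ATTGG on the other strand) in windows of 300 bases around the RefSeq start, most of them upstream, build GRCm38.p6, and 52 of the 69 genes had a window. TTTGAA was in 11 of 14 windows of division kinesins (78.6%), in 3 of 23 windows of other kinesins (13.0%) and in 16.0% of the 21263 windows of all protein-coding genes. CCAAT was in 10 of the 14 windows of division kinesins (71.4%) and in 38.2% of all windows. Both motifs were in 8 of the 14 windows (57.1%) and in 6.38% of all windows. The 14 include the close copies Kifc1 and Kifc5b, each with both motifs, so these counts hold a repeat. Kif20a, a division kinesin, had no window. Dynein chains and dynein light chains had TTTGAA in 0 of 6 and 0 of 7 windows. A match is a description of these letters and does not show that a factor binds. The stretches below are the 150 bases just before the start of 3 division kinesins, with the motifs in capitals, and of Kif17, a cilium and transport kinesin with neither motif, for contrast. They are read on the strand of the gene, 5′ to 3′. Kif11 lies at chr19:37376232-37376381 (plus strand), Kif22 at chr7:127042421-127042570 (minus strand), Kif15 at chr9:122950931-122951080 (plus strand) and Kif17 at chr4:138262101-138262250 (plus strand).
Kif11: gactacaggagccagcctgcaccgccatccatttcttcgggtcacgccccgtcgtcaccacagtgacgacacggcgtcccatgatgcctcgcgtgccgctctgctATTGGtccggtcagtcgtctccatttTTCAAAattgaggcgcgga
Kif22: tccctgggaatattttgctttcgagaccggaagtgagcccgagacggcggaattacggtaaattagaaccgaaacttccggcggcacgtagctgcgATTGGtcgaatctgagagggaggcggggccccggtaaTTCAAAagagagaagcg
Kif15: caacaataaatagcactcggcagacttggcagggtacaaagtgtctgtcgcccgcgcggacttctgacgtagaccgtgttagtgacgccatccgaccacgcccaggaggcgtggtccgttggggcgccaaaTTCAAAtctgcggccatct
Kif17: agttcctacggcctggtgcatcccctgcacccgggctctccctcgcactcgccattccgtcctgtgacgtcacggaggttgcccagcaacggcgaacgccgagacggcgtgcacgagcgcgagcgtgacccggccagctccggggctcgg
In Kif11 the CHR letters begin 19 bases before the start and the CCAAT letters 45 before, and in Kif22 they begin 17 and 54 bases before. In Kif15 the CHR letters also begin 19 bases before the start, with no CCAAT box in this stretch.

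Of 27 kinesins outside cell division, 14 averaged at least 1 FPKM. Among the 14, Kif5b and Kif1b (14.3%) were at least 1.5-fold higher, where the share over all genes was 6.12%. Both have transcripts over 4000 bases, a class where 10.4% of all genes were higher. With length centring Kif5b stayed higher, and Kif17 and Kif21b of this group were at least 1.5-fold lower, where 4.41% of all genes were lower. The median difference of the group was 0.08, a value that became −0.11 with length centring and 0.24 at the same FPKM sum. Kif5b, the ubiquitous heavy chain of conventional kinesin, which carries mitochondria, lysosomes and RNA, was listed at 35.6 FPKM in the knockout-labelled and 18.9 FPKM in the wild type library, from about 3025 reads in the knockout-labelled and 1744 reads in the wild type library. Its ratio was 1.88 (1.77 to 1.99) and its difference 0.88, and 1.76% of all genes had a larger difference. Its transcript is 6030 bases long, and after subtraction of the median of the 200 genes nearest in length the difference was 0.68, with 3.46% of genes above it. Its relatives of the nervous system were low, with Kif5a at 0.62 FPKM in the knockout-labelled and 1.2 FPKM in the wild type library, and Kif5c at 0.14 FPKM in the knockout-labelled and 0.02 FPKM in the wild type library. Kif5b was therefore the most abundant heavy chain of this subfamily per length in both libraries.

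Kif1b, which carries mitochondria and synaptic vesicle precursors in neurons, was listed at 4.14 FPKM in the knockout-labelled and 1.84 FPKM in the wild type library, from about 559 reads in the knockout-labelled and 257 reads in the wild type library. Its ratio was 2.25 (1.94 to 2.62), the largest among motor genes averaging at least 1 FPKM, and its difference 0.86. Against genes of similar length the difference was 0.53, below 1.5-fold. The mean transcript length deposited for Kif1b, which has 3 listed transcripts, also differed, at 9550 bases in the knockout-labelled and 9116 bases in the wild type library, or 4.76% longer. That length was equal in the 2 libraries for all 10851 genes with 1 transcript listed in both, and differed for 3841 of 4783 genes with several, so it carries the mix of transcripts. Among 20 motor genes with several transcripts and a mean of at least 1 FPKM, Kif1b was the only one with a length differing by at least 4%, against 7.35% of 3852 such genes overall. Kif9 had the largest shift the other way, at 2784 bases in the knockout-labelled and 2885 bases in the wild type library. It rests on few reads, about 61 in the knockout-labelled and 90 in the wild type library. No error is given for these lengths.

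Kif17, which works in cilia and in dendrites of neurons, had the largest negative difference of all motor genes, −0.56. It was listed at 5.86 FPKM in the knockout-labelled and 9.12 FPKM in the wild type library, a ratio of 0.643 (0.556 to 0.741), and 6.78% of all genes had a lower difference. Against genes of similar length it was −0.62, past 1.5-fold. Kif21b, a motor and microtubule regulator of neurons and lymphocytes, was listed at 9.09 FPKM in the knockout-labelled and 11.2 FPKM in the wild type library, a ratio of 0.812 (0.752 to 0.876). Its 9119-base transcript belongs to a length at which most genes were higher, and its difference of −0.27 became −0.61 against genes of similar length.

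Other genes in the group of kinesins outside cell division lay closer together. Kif2a, a depolymerase of neurons, was placed in this group although it also acts at spindles. It was listed at 25.9 FPKM in the knockout-labelled and 21.0 FPKM in the wild type library. Kif13a, which carries recycling endosomes, was listed at 10.6 FPKM in the knockout-labelled and 8.14 FPKM in the wild type library. Kif16b, a motor of early endosomes, was listed at 9.32 FPKM in the knockout-labelled and 7.62 FPKM in the wild type library. The intervals of these 3 lay above a ratio of 1. Kif3a and Kif3b form the motor of intraflagellar transport with Kifap3, and Kif3b was listed at 6.51 FPKM in the knockout-labelled and 6.56 FPKM in the wild type library. Kif3a was listed at 5.30 FPKM in the knockout-labelled and 4.95 FPKM in the wild type library. Kif13b was listed at 5.70 FPKM in the knockout-labelled and 5.39 FPKM in the wild type library, and Kif1c, a carrier of vesicles and RNA, at 5.28 FPKM in the knockout-labelled and 5.42 FPKM in the wild type library. The intervals of these 4 included a ratio of 1. Kif3c, Kif7 and Kif9 had means between 1 and 5 FPKM.

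The 16 motor genes with a mean below 1 FPKM were Kif2b, Dync1i1 and Dynlrb2 with 13 kinesins outside cell division, and none exceeded 1.13 FPKM in the knockout-labelled or 1.2 FPKM in the wild type library. Dync1i1, an intermediate chain, was taken as 0 in the knockout-labelled library and stood at 0.15 FPKM in wild type cells. Dynlrb2, a roadblock light chain, was taken as 0 in the knockout-labelled library and stood at 0.41 FPKM in wild type cells. Several of these genes, such as Kif1a, Kif5a and Kif5c, are best known from neurons. No neuron marker of 8 reached 1 FPKM, with sums of 0.73 FPKM in the knockout-labelled and 0.52 FPKM in the wild type library. Of these 8 markers, 3 were at 0 in the knockout-labelled and 4 in the wild type library. Of 9 ciliated cell markers 3 averaged at least 1 FPKM, and the regulator Foxj1 was listed at 0.08 FPKM in the knockout-labelled library and at 0 in the wild type library.

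Kinesin light chains and the accessory subunit were all within 1.5-fold, with a median difference of 0.12 over 5 genes. Klc1, a cargo-binding light chain of conventional kinesin, was listed at 37.4 FPKM in the knockout-labelled and 34.3 FPKM in the wild type library. Klc2 was listed at 7.33 FPKM in the knockout-labelled and 7.11 FPKM in the wild type library. Klc4 was listed at 8.25 FPKM in the knockout-labelled and 10.1 FPKM in the wild type library. Klc3 was listed at 3.12 FPKM in the knockout-labelled and 2.13 FPKM in the wild type library, and Kifap3, which links Kif3 motors to cargo, at 7.88 FPKM in the knockout-labelled and 5.98 FPKM in the wild type library. Klc1 was thus the most abundant light chain per length in each library, and it stood near Kif5b in the knockout-labelled library (Klc1 37.4 and Kif5b 35.6 FPKM) and above it in the wild type library (Klc1 34.3 and Kif5b 18.9 FPKM).

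**Figure D2:**
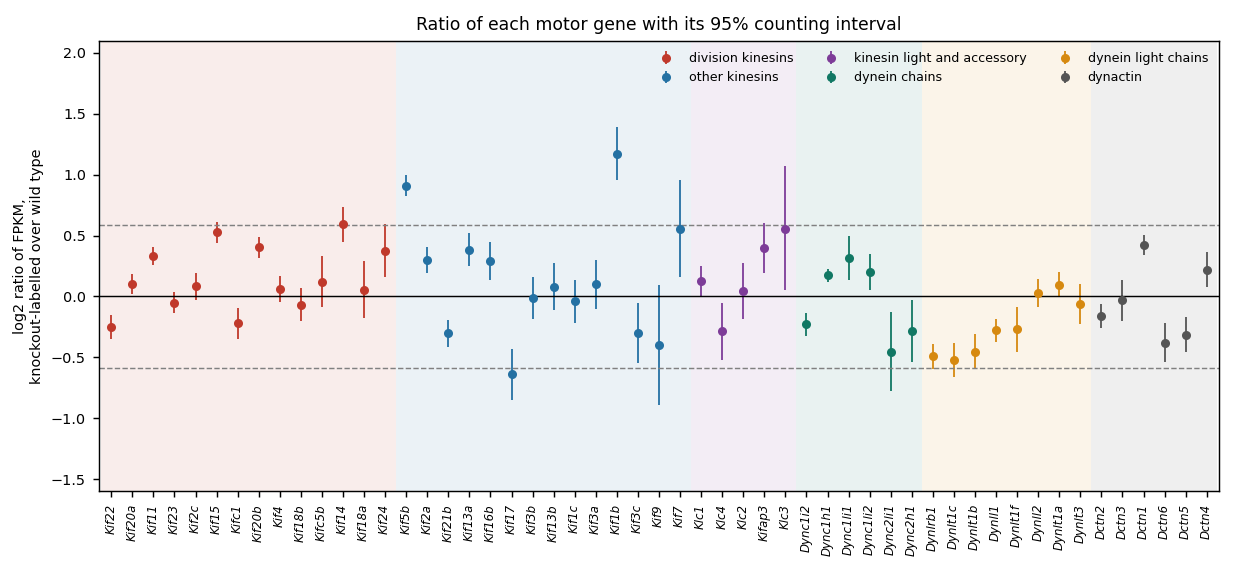
log2 ratio of FPKM, knockout-labelled over wild type, for the 53 motor genes by role, with 95% counting intervals as bars and dashed lines at 1.5-fold. Kif5b and Kif1b lie wholly above the upper line, and Kif14 and Kif17, whose point ratios pass a line, are within 1.5-fold on the log2(FPKM + 1) scale used for counts.

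Dynein chains were within 1.5-fold in every case, with a median difference of 0.01 over 6 of 7 genes, a value whose sign turned with length centring (−0.16). Dync1h1, the heavy chain that holds the motor, was listed at 28.4 FPKM in the knockout-labelled and 25.1 FPKM in the wild type library. Dync1i2, the intermediate chain that binds dynactin, was listed at 47.7 FPKM in the knockout-labelled and 55.9 FPKM in the wild type library. The light intermediate chains, which bind cargo adaptors, were Dync1li1, at 18.9 FPKM in the knockout-labelled and 15.2 FPKM in the wild type library, and Dync1li2, at 12.1 FPKM in the knockout-labelled and 10.5 FPKM in the wild type library. Without length centring, subunits of the same complex differed in sign. The intervals of Dync1h1, Dync1li1 and Dync1li2 lay above 1 and that of Dync1i2 below 1. Against genes of similar length the difference of Dync1h1 was −0.15, the same sign as that of Dync1i2 (−0.18). Those of Dync1li1 and Dync1li2 were then 0.36 and 0.03. Of the dynein of cilia, Dync2h1, the heavy chain, was listed at 1.15 FPKM in the knockout-labelled and 1.4 FPKM in the wild type library, and Dync2li1, the light intermediate chain, at 7.08 FPKM in the knockout-labelled and 9.69 FPKM in the wild type library, a ratio of 0.731 (0.585 to 0.917). The intermediate chain genes of this dynein carry the symbols Wdr34 and Wdr60 in the annotation and fall outside the name rule. Wdr34 was listed at 13.1 FPKM in the knockout-labelled and 10.6 FPKM in the wild type library, and Wdr60 at 4.16 FPKM in the knockout-labelled and 4.68 FPKM in the wild type library.

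Dynein light chains included the most abundant motor transcript per length, Dynlrb1, and had the lowest median, −0.27 over 8 of 9 genes. Of the 8, 6 were below 0, as were 5871 of all 11985 genes. The 8 include 4 near-identical Dynlt1 genes, of which Dynlt1b, Dynlt1c and Dynlt1f were below 0, so the count holds repeats. The median of dynein light chains was −0.08 at the same FPKM sum and −0.12 with length centring, where that of dynein chains was lower (−0.16). Dynlrb1, the roadblock light chain, was listed at 141 FPKM in the knockout-labelled and 198 FPKM in the wild type library, a ratio of 0.711 (0.663 to 0.762) and a difference of −0.49. Its transcript is 709 bases long, and its difference was −0.18 against genes of similar length and −0.30 at the same FPKM sum. Dynll1, the hub light chain that also dimerises many proteins outside dynein, was listed at 54.4 FPKM in the knockout-labelled and 66.0 FPKM in the wild type library. Dynll2 was listed at 33.1 FPKM in the knockout-labelled and 32.5 FPKM in the wild type library, and Dynlt3, a Tctex-type light chain, at 19.8 FPKM in the knockout-labelled and 20.7 FPKM in the wild type library. The pair Dynll1 and Dynll2 differed between the libraries by unlike amounts, with intervals of 0.77 to 0.88 and 0.94 to 1.11. Their coding sequences were 81.3% identical over 267 bases, unlike the near-identical copies described next. The first 90 coding bases of each, from the annotated GRCm38 transcripts, show this, with capitals at the 18 positions where they differ.
Dynll1: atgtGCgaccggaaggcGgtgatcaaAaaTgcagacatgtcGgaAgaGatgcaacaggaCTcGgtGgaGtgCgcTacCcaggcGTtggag
Dynll2: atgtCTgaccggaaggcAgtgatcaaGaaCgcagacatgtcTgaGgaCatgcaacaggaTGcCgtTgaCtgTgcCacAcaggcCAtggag
The Tctex light chain is encoded in this mouse annotation by 4 near-identical genes on chromosome 17, and their separate values are uncertain. Dynlt1c, with the largest negative difference among light chains (−0.52), was listed at 74.1 FPKM in the knockout-labelled and 107 FPKM in the wild type library, a ratio of 0.696 (0.632 to 0.767). Its difference was −0.20 against genes of similar length and −0.33 at the same FPKM sum. Dynlt1b was listed at 60.7 FPKM in the knockout-labelled and 83.1 FPKM in the wild type library, Dynlt1f at 39.1 FPKM in the knockout-labelled and 47.1 FPKM in the wild type library, and Dynlt1a at 21.2 FPKM in the knockout-labelled and 19.8 FPKM in the wild type library. The coding sequences of Dynlt1a, Dynlt1c and Dynlt1f were 100% identical over 339 bases, and Dynlt1b differed from them at 1 base, in capitals below within the first 90 coding bases.
Dynlt1b: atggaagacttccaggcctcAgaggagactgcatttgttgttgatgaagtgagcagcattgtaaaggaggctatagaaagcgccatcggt
Dynlt1c: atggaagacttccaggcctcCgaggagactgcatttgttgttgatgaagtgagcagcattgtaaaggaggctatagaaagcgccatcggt
Most coding reads therefore cannot be told apart among these genes, other than reads over that base of Dynlt1b. The 4 genes were also summed, giving 195 FPKM in the knockout-labelled and 257 FPKM in the wild type library, a ratio of 0.761.

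Dynactin subunits went both ways within 1.5-fold, with a median difference of −0.09 over 6 genes, which became 0.09 at the same FPKM sum and 0.03 with length centring. Dctn1, the large subunit that grips microtubules and dynein, was listed at 47.2 FPKM in the knockout-labelled and 35.2 FPKM in the wild type library, a ratio of 1.34 (1.27 to 1.42). Dctn2, the shoulder subunit that holds the complex together, was listed at 57.6 FPKM in the knockout-labelled and 64.4 FPKM in the wild type library. Dctn3, its small shoulder partner, was listed at 43.2 FPKM in the knockout-labelled and 44.2 FPKM in the wild type library. The pointed-end subunits were Dctn4, at 15.7 FPKM in the knockout-labelled and 13.5 FPKM in the wild type library, Dctn5, at 32.0 FPKM in the knockout-labelled and 39.7 FPKM in the wild type library, and Dctn6, at 33.3 FPKM in the knockout-labelled and 43.3 FPKM in the wild type library. Of these 6 genes, Dctn1 and Dctn4 were higher in the knockout-labelled library and the other 4 lower.

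The sign of a motor gene's difference went with the length of its transcript, as it did over all genes. The 5 motor genes with transcripts under 1000 bases were all below 0, with a median of −0.45. They include the near-identical copies Dynlt1b, Dynlt1c and Dynlt1f, which are not separate measurements. Of all genes of that length 924 of 1212 were below 0, with a median of −0.30. The 22 motor genes with transcripts over 4000 bases had a median of 0.22 and 17 were above 0. Of all genes of that length 2351 of 3097 were above 0, with a median of 0.20. Between these lengths the median was −0.05 over 26 motor genes and −0.03 over all genes. Spearman's correlation of length and difference was 0.54 across the 53 motor genes and 0.43 across 11985 genes, a description across genes that share the same 2 libraries. Past 1.5-fold, 10.4% of all genes with transcripts above 4000 bases were higher and 1.13% lower. Under 1000 bases 7.51% were higher and 24.2% lower, and between these lengths 4.17% were higher and 5.32% lower. After centring on genes of similar length the median was −0.12 for dynein light chains, 0.03 for dynactin, 0.04 for division kinesins and −0.11 for other kinesins. The part of length in the difference of a single gene was not tested beyond this centring.

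**Figure D3:**
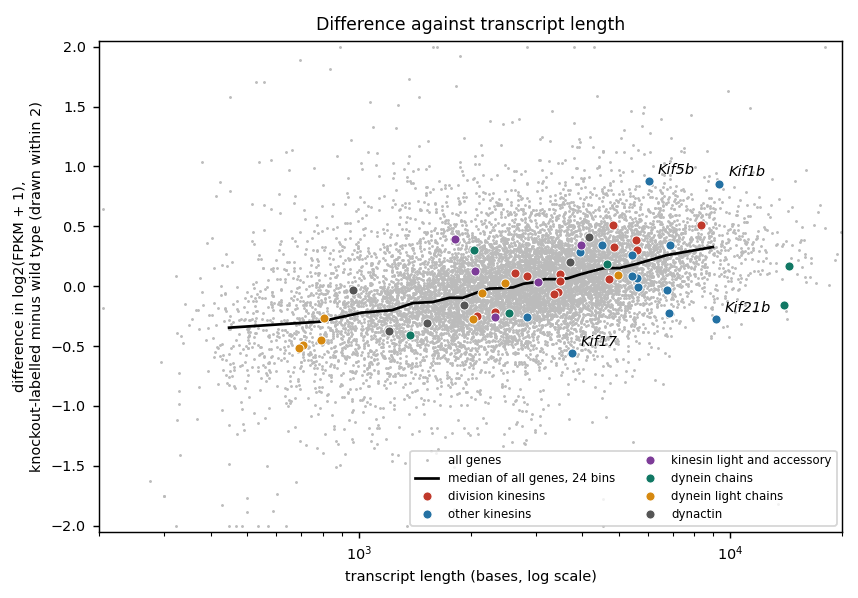
Difference in log2(FPKM + 1), knockout-labelled minus wild type, against transcript length on a log axis; grey points are all genes averaging at least 1 FPKM, the black line is their median in 24 bins, and coloured points are motor genes by role. Short dynein light chains sit below 0 and long kinesins mostly above it, along the black line, with Kif5b and Kif1b above the line and Kif17 and Kif21b below it.

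Genes that work with the motors are given from lists chosen for their known roles. Of 15 spindle partners none was 1.5-fold higher or lower, and their median difference of 0.10 lay beside the 0.09 of the division kinesins. At the same FPKM sum 2 of the 15 were 1.5-fold higher, where 12.3% of all genes were higher. Anln, a scaffold of the contractile ring, was listed at 20.8 FPKM in the knockout-labelled and 14.1 FPKM in the wild type library, and Bub1, a checkpoint kinase, at 17.2 FPKM in the knockout-labelled and 11.9 FPKM in the wild type library. Cenpe, a kinetochore kinesin whose symbol is outside the name rule, was listed at 27.2 FPKM in the knockout-labelled and 20.4 FPKM in the wild type library, and Plk1, a mitotic kinase, at 50.6 FPKM in the knockout-labelled and 39.1 FPKM in the wild type library. Proliferation markers summed to 874.1 FPKM in the knockout-labelled and 873.5 FPKM in the wild type library, with Mki67 at 140.3 FPKM in the knockout-labelled and 98.9 FPKM in the wild type library and Pcna at 311 FPKM in the knockout-labelled and 375 FPKM in the wild type library.

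Of 19 dynein regulators 15 averaged at least 1 FPKM, with 3 of them higher by 1.5-fold, where the share over all genes was 6.12%, 0 lower and a median difference of 0.15. The transcripts of Nin and Hook3, 2 of the 3, are 8633 and 12836 bases long, in the class above 4000 bases where 10.4% of all genes were higher. The number higher was 4 at the same FPKM sum, where 12.3% of all genes were higher. It was 2 with TMM or the same upper quartile, where 5.63% and 4.78% of all genes were higher. Nin, ninein, which anchors microtubules at the centrosome and activates dynein, was listed at 43.2 FPKM in the knockout-labelled and 19.2 FPKM in the wild type library, a ratio of 2.26 (2.15 to 2.37). The adaptors Hook3, at 5.65 FPKM in the knockout-labelled and 3.16 FPKM in the wild type library, and Bicdl1, at 6.01 FPKM in the knockout-labelled and 3.63 FPKM in the wild type library, completed the 3. Pafah1b1, which encodes the dynein regulator LIS1, was listed at 27.2 FPKM in the knockout-labelled and 19.9 FPKM in the wild type library. Hook1 was listed at 10.3 FPKM in the knockout-labelled and 7.60 FPKM in the wild type library, and Hook2 at 7.01 FPKM in the knockout-labelled and 8.97 FPKM in the wild type library.

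Of 19 kinesin adaptors 16 averaged at least 1 FPKM, all within 1.5-fold, with a median difference of 0.11. Arl8b, which couples lysosomes to Kif5b, was listed at 30.0 FPKM in the knockout-labelled and 22.6 FPKM in the wild type library. Trak2, which couples mitochondria to motors, was listed at 15.7 FPKM in the knockout-labelled and 11.9 FPKM in the wild type library, and its relative Trak1 at 16.5 FPKM in the knockout-labelled and 13.8 FPKM in the wild type library. Spag9, a scaffold of kinesin and dynein, was listed at 16.8 FPKM in the knockout-labelled and 13.7 FPKM in the wild type library. None of the adaptors differed as much as Kif5b itself. The 6 other dynactin subunits were also within 1.5-fold, with a median of −0.03 that became 0.16 at the same FPKM sum. Of the 6, 3 were above 0 and 3 below. Capza1, an actin-capping subunit, was listed at 70.3 FPKM in the knockout-labelled and 56.9 FPKM in the wild type library. Capzb, the most abundant of the 6, was listed at 223 FPKM in the knockout-labelled and 256 FPKM in the wild type library.

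The ciliary transport trains are built from intraflagellar transport proteins. Of 20 intraflagellar transport genes 0 were higher by 1.5-fold and 2 were lower, where 6.14% of all genes were lower. Of the 20, 14 were below 0, as were 5871 of all 11985 genes, and the median was −0.22. At the same FPKM sum 0 were lower by 1.5-fold, where 3.32% of all genes were lower. At that sum 11 of the 20 were below 0 and the median was −0.05. Ift22, a small GTPase of the train, was listed at 12.1 FPKM in the knockout-labelled and 18.6 FPKM in the wild type library, and Ift122, of the retrograde train, at 2.66 FPKM in the knockout-labelled and 4.61 FPKM in the wild type library. Ift46 was listed at 6.89 FPKM in the knockout-labelled and 10.01 FPKM in the wild type library, Cluap1 at 26.3 FPKM in the knockout-labelled and 34.2 FPKM in the wild type library, and Ift74 at 9.29 FPKM in the knockout-labelled and 11.7 FPKM in the wild type library. After length centring the median of this list was −0.24. Of 20 axonemal dynein genes, which drive motile cilia, 4 averaged at least 1 FPKM, and Dnal4 was listed at 11.1 FPKM in the knockout-labelled and 14.1 FPKM in the wild type library.

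**Figure D4:**
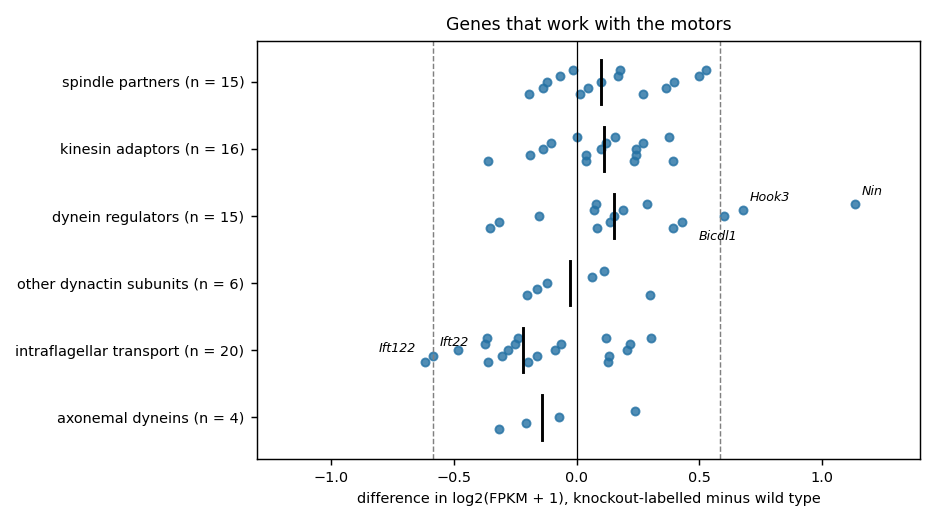
Difference in log2(FPKM + 1), knockout-labelled minus wild type, for genes averaging at least 1 FPKM on 6 lists of motor partners; points are genes, black bars are list medians and dashed lines mark 1.5-fold. Nin, Hook3 and Bicdl1 lie beyond the upper line and Ift22 and Ift122 beyond the lower one, and the intraflagellar transport median is −0.22.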

How the data were processed

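Each library was deposited as a table of Entrez gene identifiers, RefSeq transcripts, a transcript length and an FPKM value, per the file headers. The authors made the FPKM values, and their submitters' processing notes name HISAT, HISAT2, RSEM and the build mm9, with settings not given in the sources used here. Genes not listed in a library were set to 0. Symbols came from RefSeq GRCm38.p6, where 17169 of 17216 identifiers matched; file coordinates were not used. Steps between low FPKM values of short genes with 1 transcript, 70.5 and 65 per read after subtracting 36 and 41 bases in the knockout-labelled and wild type libraries, put 88.8% and 83.6% of 367 and 383 values within 0.15 of a whole read. They gave the depths, the reads per gene and exact conditional 95% intervals of ratios. Step and offset were fitted to these same values, so reads and intervals are approximate. Differences used a pseudocount of 1 FPKM, counts a mean of at least 1 FPKM and 1.5-fold. Named genes were those with a mean of at least 5 FPKM, those with a mean of at least 1 FPKM in role groups of up to 6, and up to 4 genes per partner list by absolute difference; Hook3, Bicdl1, Ift122, Wdr34, Wdr60 and low members were named outside it after their values were seen. Members, lists and motifs were chosen with earlier results of these data known. Other settings were the pseudocount, filter, scaling, length centring and omission of close copies, the last added after seeing the data. Procedures were tested on simulated data. Software was biopython 1.88, matplotlib 3.10.9, scipy 1.17.1, pandas 2.3.3 and numpy 2.4.6 under Python 3.11.15.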

Additional observations from a re-analysis of the deposited data

How the results depend on the processing

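No paired analysis was possible because each genotype has 1 library, and for the same reason no replicate could be left out. Depth limits the genes near 1 FPKM. Of the motor genes at least 1.5-fold higher, 1 (Kif5b) was left with a pseudocount of 5 FPKM, with a filter at a mean of 5 FPKM and with length centring, 5 were found at the same FPKM sum, and 2 with TMM or without close copies. At least 1.5-fold lower was 1 gene (Kif17) with a pseudocount of 0.1 FPKM or the same upper quartile, and 2 (Kif17 and Kif21b) with length centring. Over all genes, 282 were higher and 322 lower with a pseudocount of 5 FPKM, and 481 and 431 with the filter at 5 FPKM. At the same FPKM sum 1490 (12.3%) were higher and 401 (3.32%) lower. At that sum the medians were 0.22 over motor genes, 0.18 over all genes, 0.092 for dynactin, −0.082 for dynein light chains, 0.16 for dynein chains, 0.24 for other kinesins, 0.31 for kinesin light chains with Kifap3 and 0.28 for division kinesins. Length centring gave −0.05 over motor genes, 0.029 for dynactin, −0.12 for dynein light chains, −0.16 for dynein chains and −0.11 for other kinesins. The dynein chain median was −0.16 with no filter and 0.17 with the filter at 5 FPKM. Differences stayed between 0.68 and 1.06 for Kif5b, 0.42 and 1.13 for Kif1b and −0.63 and −0.38 for Kif17. The motor gene median was −0.0028 at the same upper quartile. The cause of these shifts was not tested.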
